A study of Mus musculus with 4 samples.

Results

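The comparison set dendritic cells that had received poly I:C under hypoxia against untreated dendritic cells. It covered every gene whose intensity reached 64 on either of these 2 arrays, which was 2537 of 22221 genes with a symbol, against 2715 genes that reached 64 on any of the study's 4 arrays. The cells were grown with GM-CSF from bone marrow of C57Bl/6 mice, with no genetic change named in the labels, and were kept for 16 h in 1 of 4 conditions. The untreated cells stood in media in normoxia, and the comparison's other array held cells that had stood in hypoxia, given as 0.5% of a gas the labels do not name, with poly I:C at 10 µg/ml. Cells given poly I:C in normoxia and cells in hypoxia in media had 1 array each and were used to say which single treatment came with each difference. How many mice gave bone marrow to a sample is not stated in the sources used here. Such cultures hold macrophage-like as well as dendritic cells, so an array averages over both.

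Poly I:C imitates the double-stranded RNA of viruses. Cells sense such RNA with Toll-like receptor 3 in endosomes and with the helicases RIG-I and MDA5 in the cytosol, and the sensors activate the transcription factors IRF3, IRF7 and NF-kB. Type I interferon made in response binds its receptor, and signalling from the receptor then switches on interferon-stimulated genes through a short promoter element, the ISRE. Low oxygen acts by another route. Prolyl hydroxylases need oxygen to mark hypoxia-inducible factor (HIF) for destruction, so HIF persists when oxygen is scarce and binds hypoxia response elements (HRE) at genes of glycolysis, vessel growth and the hydroxylases themselves. In myeloid cells HIF is also known to take part in inflammatory responses, among them expression of the inducible nitric oxide synthase gene Nos2 and of Arg1.

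Values are the authors' linear RMA intensities. A difference is the log2 of the combined array over the untreated one, and a gene is counted as higher or lower from 2-fold on. With 1 array per condition no difference has a replicate error or a test. Median intensities over all probe sets were 3.90 to 4.09 on the 4 arrays and the highest were 7225 to 8810. The defining markers of dendritic cells were in part present: Itgax, the gene of CD11c, read 615 untreated, 328 with poly I:C, 425 in hypoxia and 268 under both, and the MHC class II gene H2-Ab1 read 631 untreated, 818 with poly I:C, 1037 in hypoxia and 1402 under both. Zbtb46, a transcription factor gene of conventional dendritic cells, read 4.97 to 6.21 and Flt3, a growth factor receptor gene, 2.48 to 3.83, both near the arrays' medians. Macrophage markers were abundant, with Lyz2 at 2856 to 3543.

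With both treatments 495 genes were higher (19.5%) and 381 were lower (15%) than on the untreated array, with a median difference of -0.11 and a range from -5.48 to 6.97. With poly I:C alone 369 of the same genes were higher (14.5%) and 183 lower (7.21%). With hypoxia alone 130 were higher (5.12%) and 170 lower (6.7%). All of these comparisons share the untreated array, so a high or low value there moves all of them together, and their values are set side by side here without an overlap or a correlation. How a gene reached 64 bears on its direction. The 524 genes at 64 on the combined array only held 340 of the higher genes, the 555 at 64 on the untreated array only held 275 of the lower genes, and such genes could differ in 1 direction only at 2-fold. Of the 1458 genes at 64 on both arrays 155 (10.6%) were higher and 106 (7.27%) were lower. Genes just inside the floor were Cdkn2aipnl (64.01 untreated, 29.2 with both), Galnt1 (64.1, 27.8) and Htra2 (43.1, 64.1), and just outside were Fbxl20 (63.99, 41.2), Dna2 (63.96, 21.1) and Tsg101 (63.96, 58.4).

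**Figure D1:**
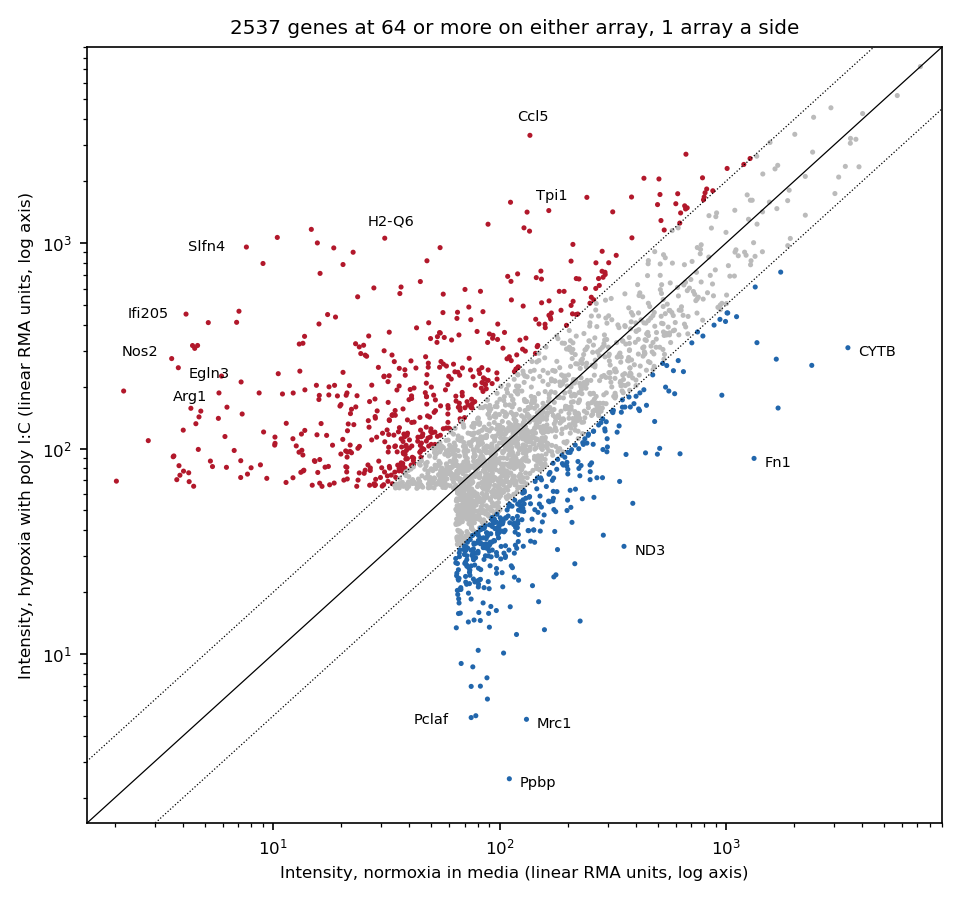
Intensity of each of the 2537 genes on the combined array (vertical, log axis) against the untreated array (horizontal, log axis), with 1 array on each axis. Red points are the 495 genes at least 2-fold higher and blue points the 381 at least 2-fold lower, the dotted lines mark 2-fold, and the empty lower left corner is the floor of 64.

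The 20 genes with the highest differences were nearly all interferon-stimulated. Their untreated intensities were low, 2.19 to 22.5, and 4 of them lay under the untreated array's median over all probe sets, so the size of these differences rests on a dim denominator. Slfn4, a Schlafen family gene, read 7.61 untreated, 1307 with poly I:C, 6.99 in hypoxia and 957 under both, the highest difference of all at 6.97. Ifi205, a member of the Ifi200 family of DNA-binding proteins, read 4.12 untreated, 310.1 with poly I:C, 2.11 in hypoxia and 451 under both (6.77). Ms4a4c, a membrane protein gene, read 10.4 untreated, 1092 with poly I:C, 3.90 in hypoxia and 1065 under both (6.67). In all of them both arrays with poly I:C were high and both arrays without it were low. The same held for Rsad2, which encodes the antiviral protein viperin and read 14.7 untreated, 1403 with poly I:C, 13.02 in hypoxia and 1166 under both (6.31), and for its neighbour on chromosome 12, Cmpk2, a mitochondrial nucleotide kinase gene, at 7.06 untreated, 493 with poly I:C, 2.76 in hypoxia and 466 under both (6.04).

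A single treatment was taken to account for a difference when its own array stood at least 2-fold from the untreated array in the same direction and fell less than 2-fold short of the combined array. By that rule poly I:C accounted for 18 of the 20 genes, hypoxia for 1, Egln3, and neither fully for Nos2. The other genes accounted for by poly I:C were, with their differences for both treatments and for poly I:C alone, the RNA-binding Ifit family genes Ifit3 (6.46, 6.02), Ifit3b (6.45, 5.86), Ifit2 (5.68, 5.80) and Ifit1 (5.47, 5.29). The GTPase genes Gbp4 (6.31, 5.75), Iigp1 (6.09, 5.28) and Tgtp1 (5.90, 5.75) belonged there too, as did the exonuclease gene Isg20 (6.17, 5.94) and Ch25h (6.10, 6.45), whose enzyme makes 25-hydroxycholesterol. The chemokine gene Cxcl10 (5.998, 6.28), the transcription factor gene Irf7 (5.32, 5.14), Ifi44 (5.27, 5.08) and Csprs (5.28, 5.07) completed the group. Between the 2 poly I:C arrays, hypoxia minus normoxia ran from -0.45 for Slfn4 to 0.82 for Iigp1 over these 18. The rule itself keeps the combined array less than 2-fold above poly I:C alone, so only the lower side of this range was free. Ifit3 and Ifit3b are near-identical genes, so their probe sets may read each other's transcripts. With cyclic loess scaling, fitted only to the genes at the floor, Ifit3b stood at 2.58 and Csprs at 1.22. Ch25h, Ifit2, Ifit3, Ifit3b and Ifit1 lie close together on chromosome 19, with at most 1 coding gene between neighbours in RefSeq.

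In hypoxia alone 8 of the 20 genes were 2-fold lower than untreated, so the hypoxia array lay on the opposite side from the combined one. Ms4a4c (-1.42), Ifit3 (-1.54), Cmpk2 (-1.36), Cxcl10 (-1.94), Tgtp1 (-1.22), Ifit2 (-1.77), Ifit1 (-1.62) and Ifi44 (-1.49) were these 8. Set against hypoxia alone, poly I:C therefore spanned more than against normoxia in media. Ms4a4c stood 8.09 apart between the 2 hypoxic arrays on the log2 scale, over a dim value of 3.90 in hypoxia in media.

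**Figure D2:**
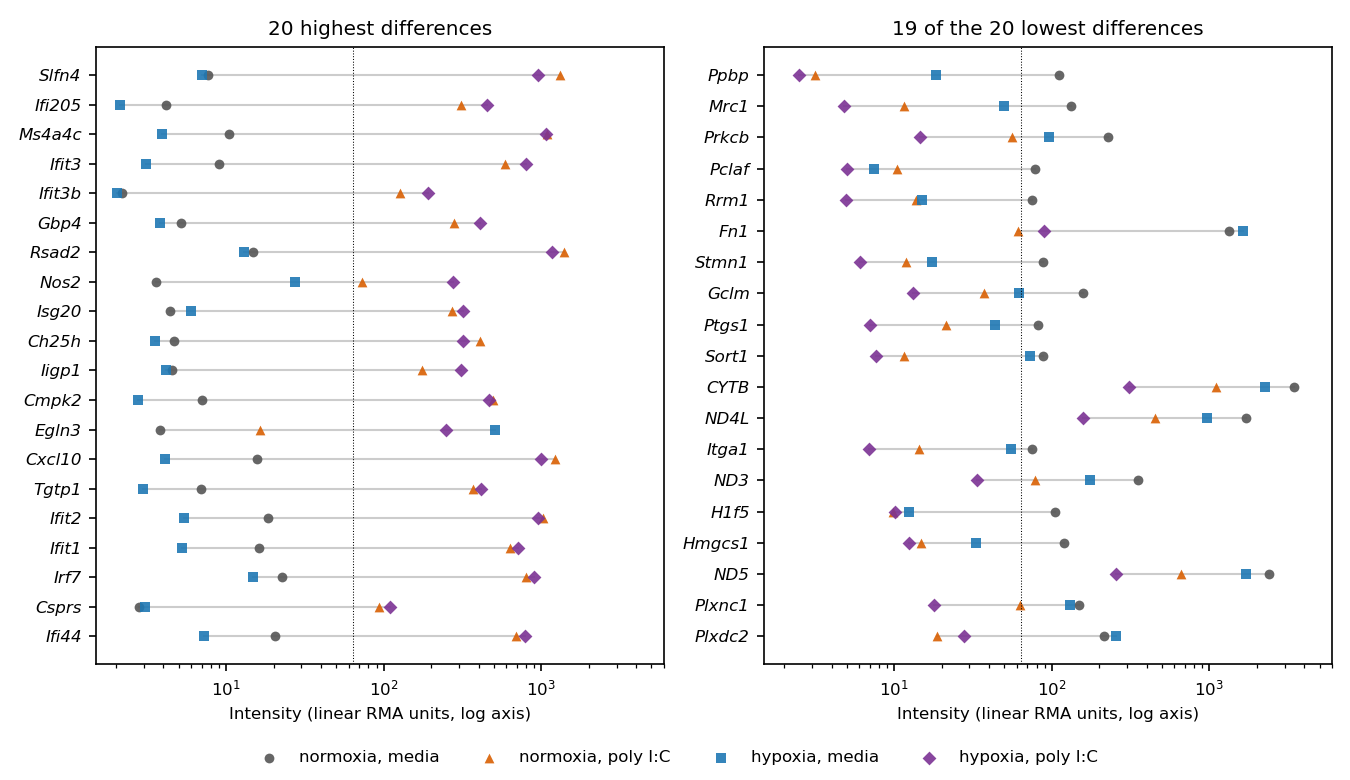
Intensity on each of the 4 arrays (horizontal, log axis) for the 20 genes with the highest difference and 19 of the 20 with the lowest between the combined and the untreated array, 1 array per symbol, with the floor of 64 dotted. For most genes on the left both poly I:C arrays lie together at the right end, Egln3 and Nos2 apart, and for many on the right the combined array lies below both single treatments.

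The promoters of the leading genes were read in RefSeq's windows of mouse build GRCm38.p6, using the 250 bases upstream of each annotated start. Of the 40 leading genes 27 had such a window. The ISRE core was searched as GAAA, any 2 bases, GAAA on both strands. It stood in 7 of 16 leading higher genes with a window (43.8%) and in 936 of all 27025 genes (3.46%), and in 111 of 1918 genes at the floor (5.79%). The stretches that hold it are shown because the core stood in a larger share of the leading higher genes than of all genes, each from 12 bases before the first match to 12 after the last, 5′ to 3′ on the gene's strand, with the matches in capitals. A match on the other strand reads TTTC, any 2 bases, TTTC.
Ifi205, chr1:174031868-174031901, minus strand: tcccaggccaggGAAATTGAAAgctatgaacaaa
Ifit3, chr19:34583361-34583428, plus strand: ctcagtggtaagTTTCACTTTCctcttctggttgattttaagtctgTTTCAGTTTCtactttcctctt
Ifit3b, chr19:34607757-34607824, plus strand: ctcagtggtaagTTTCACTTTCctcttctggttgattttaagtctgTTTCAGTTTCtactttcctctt
Ifit1, chr19:34640773-34640825, plus strand: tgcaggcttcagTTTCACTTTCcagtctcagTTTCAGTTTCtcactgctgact
Rsad2, chr12:26456551-26456584, minus strand: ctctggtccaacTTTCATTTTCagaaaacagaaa
Cxcl10, chr5:92349081-92349114, minus strand: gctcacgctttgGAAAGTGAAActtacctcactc
Tgtp1, chr11:48992302-48992335, minus strand: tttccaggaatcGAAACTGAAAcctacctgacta
Plxnc1, chr10:94944942-94944975, minus strand: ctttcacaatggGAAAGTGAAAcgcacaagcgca
The Ifit3 and Ifit3b stretches are the same 68 bases with 2 matches each. Plxnc1 is the only one of 11 leading lower genes with a window that holds the core (9.09%), and it was lower on both poly I:C arrays. In Slfn4, the highest gene, the core was not found in the window, which says only that these letters are not in these bases:
Slfn4, chr11:83174936-83175185, plus strand: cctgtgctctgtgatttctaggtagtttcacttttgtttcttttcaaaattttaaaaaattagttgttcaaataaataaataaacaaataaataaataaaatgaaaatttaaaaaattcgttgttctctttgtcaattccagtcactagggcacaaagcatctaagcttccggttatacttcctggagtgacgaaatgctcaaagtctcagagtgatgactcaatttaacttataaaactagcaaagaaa

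**Figure D3:**
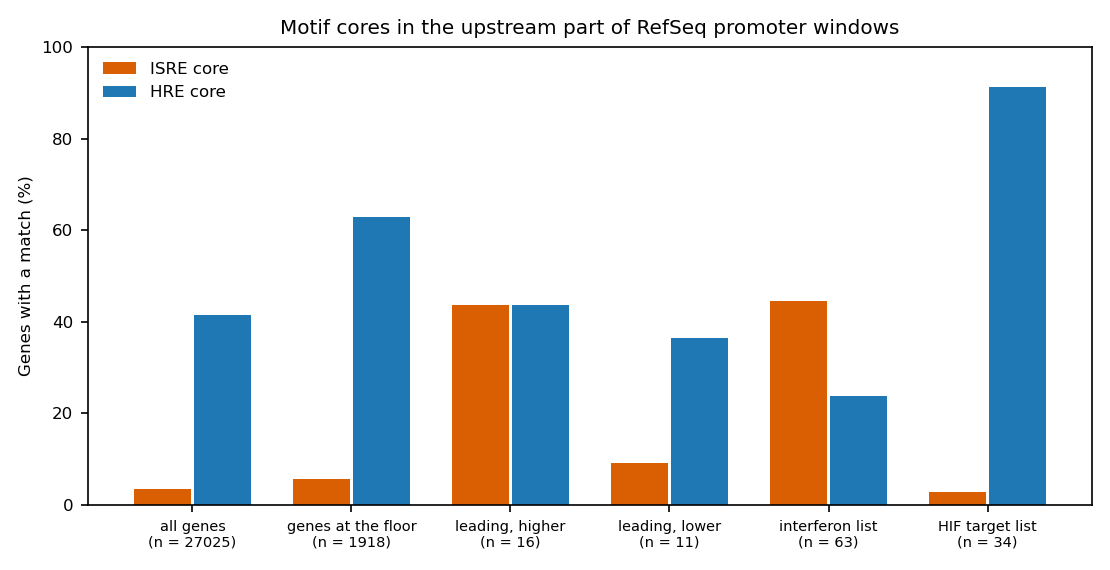
Share of genes (vertical, in percent) whose 250 bases upstream of an annotated RefSeq start hold the ISRE core (orange) or the HRE core (blue), for all genes, the genes at the floor, the leading genes and 2 gene lists, with the number of genes that had a window under each pair. The ISRE core stood in 44.4% of the interferon list and 3.46% of all genes, and the HRE core in 91.2% of the HIF target list and 41.5% of all genes.

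The lists of genes that follow were drawn up by pathway, and each is set beside the shares over all 2537 genes, 19.5% higher and 15% lower. In every list a gene at 64 on 1 array only could differ in 1 direction only at 2-fold. Over all genes at 64 on both arrays the shares were 10.6% higher and 7.27% lower. Among sensors and adaptors of double-stranded RNA 9 of 16 genes were higher and none lower (median 1.32). Of the 16 genes 9 had reached 64 on the combined array only, and of the 7 at 64 on both arrays 3 were higher. Irf7, the transcription factor that amplifies interferon, read 22.5 untreated, 796 with poly I:C, 14.7 in hypoxia and 903 under both. Zbp1, a nucleic acid sensor gene, read 17.6 untreated, 159 with poly I:C, 10.6 in hypoxia and 199.7 under both (3.50). The helicase genes Dhx58 (2.52), Ifih1 (2.43) and Ddx58 (1.89), for LGP2, MDA5 and RIG-I, and Eif2ak2 (2.11), for the kinase PKR, were higher as well. With poly I:C alone 10 of the 16 were higher (median 1.20), and with hypoxia alone none was higher and 3 were lower (median -0.56). The signalling kinase genes Tbk1 (0.84) and Ikbke (-0.31) stayed under 2-fold. None of 16 genes of type I and type III interferons on the array reached 64 on either array, so the interferon transcripts gave no value here.

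Of 15 genes of interferon receptors, STATs and feedback 5 were higher and 1 was lower (median 0.63). Usp18, which restrains interferon receptor signalling, read 27.8 untreated, 629.6 with poly I:C, 13.2 in hypoxia and 605 under both (4.44), high on both poly I:C arrays. Stat2 (2.51), Irf1 (2.36) and Tyk2 (2.08) were among the higher genes, whereas the receptor genes Ifnar1 (0.20) and Ifnar2 (0.55) were under 2-fold and Ifngr1, a chain of the interferon gamma receptor, was lower (-1.20). Tyk2, the kinase at the interferon receptor, was 2-fold higher on the combined array only: it read 16.05 untreated, 31.2 with poly I:C, 17.6 in hypoxia and 67.9 under both. Its difference was -0.061 with cyclic loess scaling fitted to the genes at the floor, so its direction depends on the scaling. How far the choice of genes for that fit bears on it was not tested.

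Interferon-stimulated effectors had the highest median of the lists with at least 5 genes at the floor, ahead of arginine metabolism, which was ahead instead with 16 added (2.61 against 2.46) and after cyclic loess (2.92 against 2.68). Of its 81 genes at the floor 75 were higher and none was lower (median 3.03), and 77 were higher with poly I:C alone (median 2.83). Of the 81 genes 62 had reached 64 on the combined array only, which favours higher values, and of the 19 at 64 on both arrays 17 were higher. With hypoxia alone 31 of the 81 were lower and 1, Ifitm1, was higher (median -0.80). The 6 genes under 2-fold with both treatments were Zc3hav1 (0.95), Apobec3 (0.95), Pnpt1 (0.94), Ifitm1 (0.72), Ifitm2 (0.56) and Samhd1 (0.35), named here after their values were seen. Of 63 list genes with a promoter window 28 held the ISRE core (44.4%).

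Several of these genes stood on opposite sides of the untreated array with the 2 single treatments, at 2-fold or more each way, and the combined array then lay near poly I:C alone. Ly6a, which encodes the surface protein Sca-1, read 88.9 untreated, 1488 with poly I:C, 19.4 in hypoxia and 1235 under both. Rtp4 read 63.5 untreated, 276 with poly I:C, 10.3 in hypoxia and 236 under both, and Ifi206 read 15.9 untreated, 308 with poly I:C, 3.42 in hypoxia and 404 under both. Each was lowest in hypoxia in media and many-fold above that with both treatments. Cfb, which encodes complement factor B, read 383 untreated, 1511 with poly I:C, 91.7 in hypoxia and 1676 under both, and the GTPase gene Gm12250 read 28.2 untreated, 179 with poly I:C, 6.73 in hypoxia and 174 under both, both likewise lowest in hypoxia in media. Ifi203 and Cxcl10 were of this kind too, with 2.45 and -1.96 for poly I:C and hypoxia alone in Ifi203 and 6.28 and -1.94 in Cxcl10. The glycolytic gene Aldoc was the reverse case. It read 64.2 untreated, 14.4 with poly I:C, 263 in hypoxia and 87.01 under both, low with poly I:C and high with hypoxia, and the combined array differed from untreated by only 0.44.

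MHC class I and peptide loading had 19 of 24 genes higher and none lower (median 2.26), against 19 with poly I:C alone (median 1.89) and none higher with 3 lower in hypoxia alone (median 0.05). H2-Q6, a nonclassical class I gene, read 31.1 untreated, 533 with poly I:C, 41.3 in hypoxia and 1056 under both (5.09). H2-T22 read 54.6 untreated, 599.9 with poly I:C, 57.2 in hypoxia and 950.4 under both (4.12), and H2-T10 was at 4.46. In all of these both poly I:C arrays were high and the combined array was the higher of them. Tap2, a subunit of the peptide transporter, read 21.2 untreated, 97.5 with poly I:C, 29.95 in hypoxia and 187 under both (3.14), with the combined array again the highest. The classical genes H2-K1 (2.25) and H2-D1 (1.75) were higher, while the general chaperones Calr (-0.62) and Canx (-0.73) lay below 0 and under 2-fold. Class I genes are near-identical in stretches, so their probe sets may read each other's transcripts. MHC class II and its processing had 1 of 8 genes higher, H2-Ab1 (1.15), none lower and a median of 0.31. Its values with the single treatments were 0.38 for poly I:C and 0.72 for hypoxia, so neither reached 2-fold alone. H2-Eb1 (0.65), H2-Aa (0.58) and H2-DMb2 (0.40) stayed under 2-fold.

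Of 18 cytokine and chemokine genes 9 were higher and 1 was lower (median 1.18), against 11 higher with poly I:C alone (median 1.48) and 6 lower with hypoxia alone (median -0.44). Ccl5, a chemokine gene for T cells and monocytes, read 136 untreated, 3157 with poly I:C, 56.6 in hypoxia and 3345 under both (4.62). Cxcl11 (4.41) and Cxcl9 (4.23), which share a receptor with Cxcl10, were higher by poly I:C as well, although with cyclic loess scaling Cxcl11 stood at 1.28 and Cxcl9 at 0.25. The interleukin genes Il15 (3.04), Il1a (2.07), Il1b (1.85) and Il1rn (1.43) were higher. Tnf read 52.6 untreated, 190.2 with poly I:C, 26.3 in hypoxia and 100.4 under both, 2-fold higher with poly I:C alone and 0.93 with both. Ccl2, a chemokine gene for monocytes, read 74.5 untreated, 127 with poly I:C, 3.51 in hypoxia and 47.7 under both. It was far the lowest in hypoxia in media, and with both treatments it stood at -0.64 on the log2 scale from untreated. The lower gene of the list was Cxcl3 (-1.35), a neutrophil chemokine gene.

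Maturation and migration genes of dendritic cells gave 7 higher and 2 lower of 14 (median 1.03), against 9 higher and none lower with poly I:C alone (median 1.43). The co-stimulatory ligand gene Cd86 read 24.001 untreated, 236 with poly I:C, 23.6 in hypoxia and 312 under both (3.70), high on both poly I:C arrays. Il15ra (3.36, 1.05 after cyclic loess) and Il15, the receptor chain and the cytokine it presents, were higher with both treatments and with poly I:C alone. Tnfrsf9, which encodes the co-stimulatory receptor 4-1BB, read 18.8 untreated, 97.98 with poly I:C, 436 in hypoxia and 437 under both (4.53), and hypoxia accounted for it. The chemokine receptor gene Ccr7, which guides mature dendritic cells to lymph nodes, read 59.9 untreated, 223 with poly I:C, 39.7 in hypoxia and 93.2 under both: it was higher with poly I:C alone and stood at 0.64 with both. Marcks, an actin-regulating gene, was lower (-1.82), with -0.07 for poly I:C alone and -1.48 for hypoxia alone. The NF-kB feedback and early response list had 11 of 18 genes higher and none lower (median 1.28). Ptgs2, the inducible cyclooxygenase gene, read 4.33 untreated, 78.7 with poly I:C, 5.002 in hypoxia and 157 under both (5.18), highest with both treatments. Gadd45b (2.38) and Dusp1 (2.12) were higher by poly I:C, whereas Ier3 read 7.19 untreated, 15.8 with poly I:C, 46.7 in hypoxia and 72.3 under both (3.33) and was accounted for by hypoxia. With cyclic loess scaling Ier3 stood at 0.76 and Ptgs2 at 2.26. Of 7 Toll-like receptor and co-receptor genes 2 were higher, Cd14 (1.89) and Ly86 (1.57), none was lower, and Tlr2 (0.93) and Tlr8 (-0.78) were under 2-fold (median 0.56).

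Among HIF target genes 36 of 42 were higher and none was lower (median 2.54). Hypoxia alone gave 36 higher (median 2.45) and poly I:C alone 19 higher (median 0.90). Of the 42 genes 31 had reached 64 on the combined array only, which favours higher values, and of the 11 at 64 on both arrays 7 were higher. Egln3, which encodes a prolyl hydroxylase that limits HIF, read 3.81 untreated, 16.3 with poly I:C, 506 in hypoxia and 247 under both (6.02). It was highest in hypoxia alone and lower there once poly I:C was added. Arg1, the arginase gene, read 5.76 untreated, 36.4 with poly I:C, 796 in hypoxia and 187 under both (5.02), in the same order. Selenbp1 read 4.70 untreated, 4.73 with poly I:C, 113 in hypoxia and 143 under both (4.92), high on both hypoxic arrays with nothing added by poly I:C alone (0.01), and it stood at 2.29 after cyclic loess.

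Other genes that hypoxia accounted for were Ndrg1 (4.63 with both, 5.04 with hypoxia alone), a hypoxia-induced gene of cell differentiation, and Ero1a (4.10, 4.17), an oxidase gene of the endoplasmic reticulum. Ak3l1 (4.26, 4.01), an adenylate kinase gene, Ankrd37 (3.92, 4.19) and the glycogen synthase gene Gys1 (3.81, 3.83) behaved alike. Hilpda, whose product coats lipid droplets, read 10.2 untreated, 11.9 with poly I:C, 61.95 in hypoxia and 114 under both (3.48). Vegfa, the vessel growth factor gene, read 27.3 untreated, 75.2 with poly I:C, 214 in hypoxia and 204 under both (2.90), nearly the same on both hypoxic arrays. P4ha2, a collagen prolyl hydroxylase gene, was at 4.43 with both and 3.22 with hypoxia alone. Hif1a itself, the oxygen-regulated subunit, read 277 untreated, 332 with poly I:C, 82.7 in hypoxia and 166 under both: the transcript was lowest in hypoxia and -0.74 with both treatments. The other hydroxylase and co-regulator genes of the pathway at the floor, Egln1 (2.62) and Cited2 (1.77), were higher, which made 3 of 4 pathway genes higher and none lower (median 2.19).

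The HRE core was searched as ACGTG or GCGTG on both strands, where CACGTG holds ACGTG on each strand and overlapping matches count separately. It stood in 31 of 34 HIF target genes with a window (91.2%), against 41.5% of all genes and 62.8% of genes at the floor. It also stood in 15 of 63 interferon-stimulated genes (23.8%) and in 7 of 16 leading higher genes (43.8%). Egln3 is shown because it is the leading gene that hypoxia accounted for, with its 1 match in capitals.
Egln3, chr12:54203875-54204124, minus strand: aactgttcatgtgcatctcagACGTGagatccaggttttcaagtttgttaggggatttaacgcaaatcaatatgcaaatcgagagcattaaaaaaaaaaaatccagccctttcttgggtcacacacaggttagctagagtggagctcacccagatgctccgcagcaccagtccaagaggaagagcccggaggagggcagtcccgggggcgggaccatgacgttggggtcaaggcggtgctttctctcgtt

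**Figure D4:**
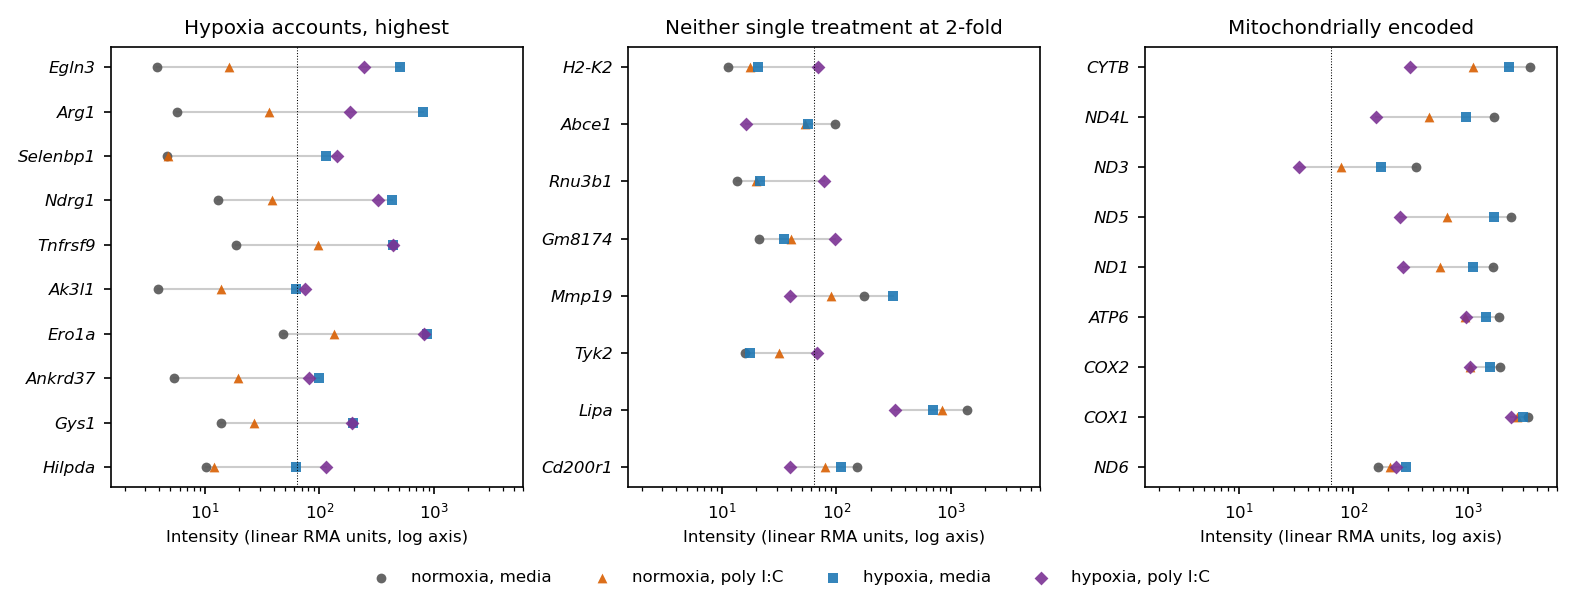
Intensity on each of the 4 arrays (horizontal, log axis) for the highest genes that hypoxia accounted for, for genes 2-fold apart only on the combined array, and for mitochondrially encoded genes, 1 array per symbol, with the floor of 64 dotted. In the left panel both hypoxic arrays lie to the right, and in the right panel the combined array is the lowest for CYTB, ND4L, ND3, ND5 and ND1 but not for ND6.

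Nos2 was the one leading higher gene that neither treatment fully accounted for, although poly I:C did when a single treatment needed only 50% of the combined log2 difference. It read 3.56 untreated, 72.4 with poly I:C, 27.2 in hypoxia and 274 under both (6.27), with 4.35 for poly I:C alone and 2.93 for hypoxia alone, so each single treatment was well above untreated and the combined array stood 1.92 above poly I:C alone on the log2 scale. Nos2 and arginase compete for arginine. Slc7a2, which encodes an arginine transporter, read 82.3 untreated, 540.0 with poly I:C, 832 in hypoxia and 583 under both (2.82), high with either treatment and not higher with both. Of the 5 genes of arginine metabolism 4 were higher and none was lower (median 2.82), with Sat1 at 1.10 and Odc1 at 0.68.

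Glycolysis and lactate handling had 19 of 22 genes higher and none lower (median 1.65). Hypoxia alone gave 17 higher (median 1.64), and poly I:C alone gave 8 higher and 1 lower (median 0.80). Of the 16 genes at 64 on both arrays 13 were higher. Tpi1, for triosephosphate isomerase, read 165 untreated, 502 with poly I:C, 847 in hypoxia and 1439.9 under both (3.13), from low to high in the order untreated, poly I:C, hypoxia, both. Slc16a3, the lactate exporter gene, read 65.2 untreated, 209 with poly I:C, 347 in hypoxia and 461 under both (2.82), in that order too. Pgm1 (3.09) and the phosphofructokinase gene Pfkl (2.72) were highest with both treatments as well, while the glucose transporter gene Slc2a1 (2.12) and Gpi1 (1.41) were highest in hypoxia alone. Hk3, a hexokinase gene, read 74.4 untreated, 199 with poly I:C, 89.4 in hypoxia and 241 under both (1.70) and followed poly I:C. The genes under 2-fold were Gapdh (0.65), Aldoc and Pdk3 (0.06).

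**Figure D5:**
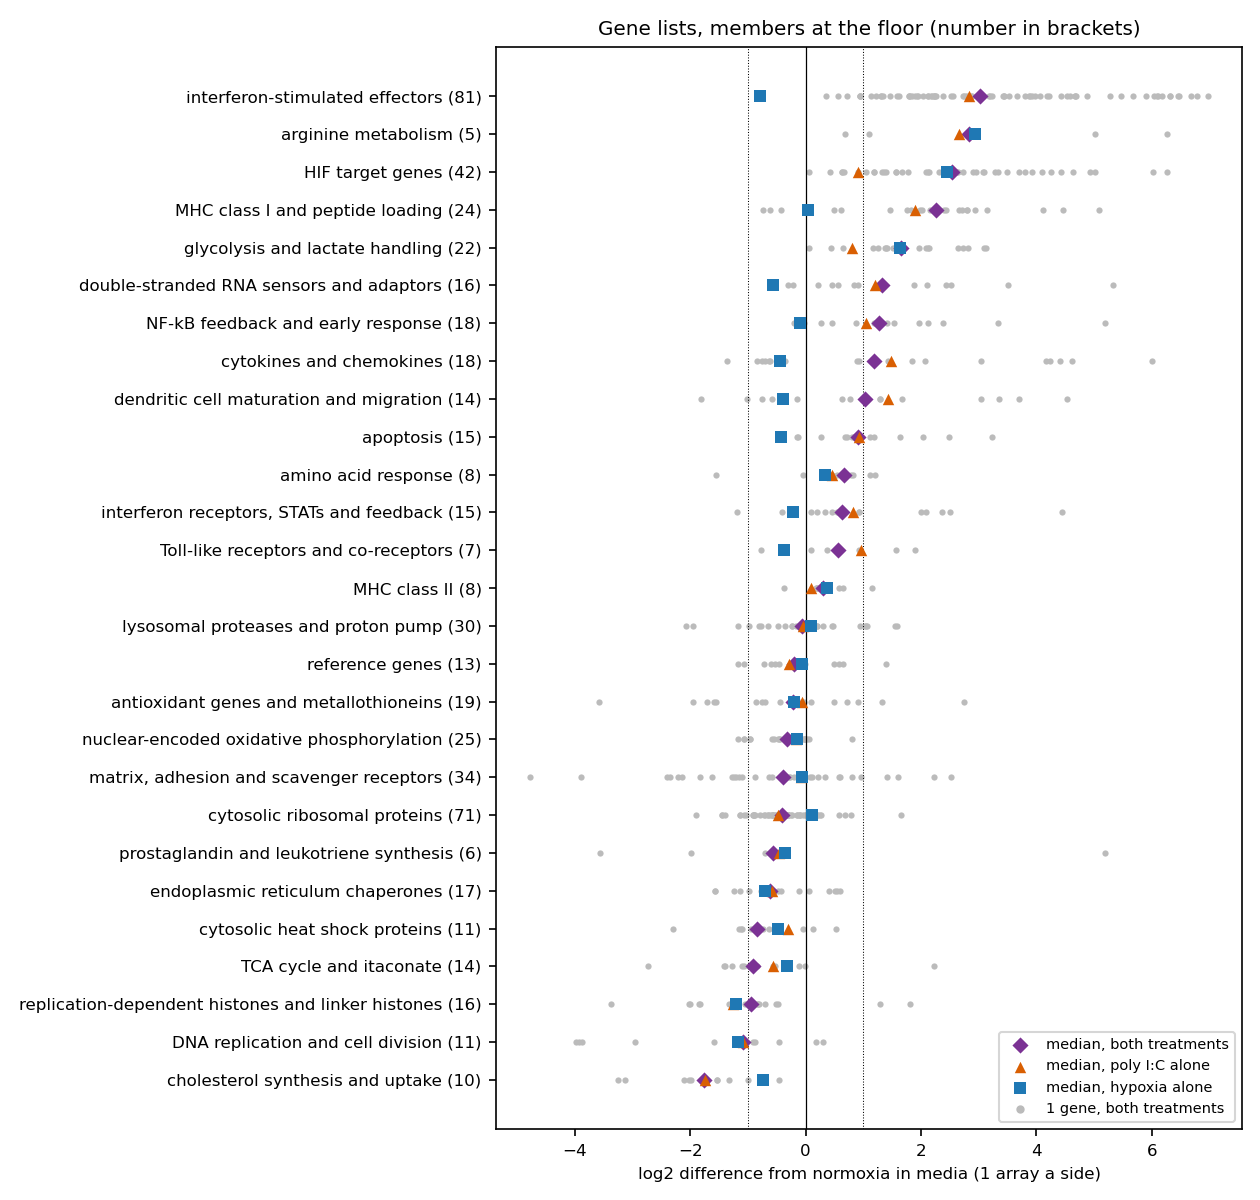
Log2 difference from the untreated array (horizontal, 1 array a side) for gene lists with at least 5 genes at the floor, numbers in brackets, with 1 grey point per gene for both treatments and medians for both treatments (purple), poly I:C alone (orange) and hypoxia alone (blue). The dotted lines mark 2-fold, and the combined median lies near poly I:C alone for interferon-stimulated effectors (3.03 and 2.83) and near hypoxia alone for HIF target genes (2.54 and 2.45).

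The 20 genes with the lowest differences were of mixed kinds. Poly I:C accounted for 7 of them, hypoxia for 1, each single treatment on its own for 1, and neither fully for the other 11, against 1 such gene at the higher end. All 20 were at least 2-fold lower with poly I:C alone. In 12 of the 20 the combined array was 2-fold or more below poly I:C alone. These were the same 11, where the rule then requires it, and Pclaf (-1.04). Of the 20 genes 16 reached 64 on the untreated array only, and such a gene had to be lower to be 2-fold apart. On the arrays of a bulk culture fewer cells of a type and less RNA per cell cannot be told apart. How many of the lower genes counted as accounted for by neither depended on the rule and the scaling. It was 11 as given, 2 when a single treatment needed only 50% of the combined log2 difference, 5 after 16 was added to each intensity and 18 after cyclic loess.

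Ppbp, a platelet chemokine gene also made by myeloid cells, read 110.4 untreated, 3.12 with poly I:C, 18.4 in hypoxia and 2.47 under both, the lowest difference of all at -5.48. With poly I:C it lay under the median of all probe sets on that array, 3.92, and hypoxia alone was in between. The platelet list's other genes on the array summed with it to 211 untreated, 59.5 with poly I:C, 134 in hypoxia and 72.7 under both, and its other brighter genes were Pf4 and Vwf. Pf4, the platelet factor 4 gene, read 44.5 untreated, 13.6 with poly I:C, 21.1 in hypoxia and 16.8 under both, lower on all arrays than untreated like Ppbp, and Vwf read 32.7, 21.3, 68.1 and 30.1 in that order. The defining genes Itga2b (3.34 to 4.58), Gp1ba and Gp9 were near the arrays' medians or below throughout, and the part of such cells in the Ppbp difference was not tested. Fn1, which encodes fibronectin, read 1331 untreated, 60.8 with poly I:C, 1629 in hypoxia and 89.6 under both (-3.89), low on both poly I:C arrays and high on both others. Plxdc2 (-2.97 with both, -3.52 with poly I:C alone) had the same order. The sorting receptor gene Sort1 (-3.52, -2.93) was low on both poly I:C arrays too, lowest with both treatments. Hmgcs1 (-3.25, -2.996), for an enzyme of cholesterol synthesis, and Stmn1 (-3.87, -2.89), which regulates microtubules, were also among the genes that poly I:C accounted for.

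Mrc1, the mannose receptor gene of macrophages and immature dendritic cells, read 131 untreated, 11.5 with poly I:C, 50.1 in hypoxia and 4.81 under both (-4.77). Poly I:C alone gave -3.51 and hypoxia alone -1.39, so without an offset every step down was at least 2-fold and the combined array was the lowest. The last step lies near the combined array's median of 4.09. With 16 added to each intensity, hypoxia minus normoxia between the 2 poly I:C arrays was -0.40 for Mrc1. Prkcb, for protein kinase C beta, read 227 untreated, 56.3 with poly I:C, 96.1 in hypoxia and 14.5 under both (-3.97), again lowest with both. Gclm, which encodes a subunit of the enzyme that starts glutathione synthesis, read 158 untreated, 37.2 with poly I:C, 61.5 in hypoxia and 13.1 under both (-3.59). Ptgs1, the constitutive cyclooxygenase gene, was at -3.56 with both, -1.95 with poly I:C and -0.91 with hypoxia. The integrin gene Itga1 was at -3.43, -2.39 and -0.44 in that order. With 16 added, poly I:C accounted for Mrc1, Gclm, Ptgs1 and Itga1. Plxnc1, a semaphorin receptor gene, read 149 untreated, 63.2 with poly I:C, 130.0 in hypoxia and 17.98 under both (-3.05), with little difference in hypoxia in media and a combined array far under poly I:C alone. Mrc1 is shown as the highest-ranked of these genes, and neither core was found in its window.
Mrc1, chr2:14229164-14229413, plus strand: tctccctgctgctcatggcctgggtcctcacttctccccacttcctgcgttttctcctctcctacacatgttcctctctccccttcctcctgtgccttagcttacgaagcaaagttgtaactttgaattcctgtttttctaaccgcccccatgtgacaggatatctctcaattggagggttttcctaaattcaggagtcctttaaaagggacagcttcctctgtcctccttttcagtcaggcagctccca

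Genes of dividing cells stood among the lowest. Of 11 genes of DNA replication and cell division 6 were lower and none was higher (median -1.09), and each single treatment gave 7 (poly I:C) or 6 (hypoxia) lower. The median depended on the floor: it was -2.95 with a floor of 32, -0.67 with 64 on the mean of the arrays and -0.46 with the highest floor tried. Pclaf, whose product binds the replication clamp, read 78.5 untreated, 10.3 with poly I:C, 7.39 in hypoxia and 5.01 under both (-3.97), and hypoxia accounted for it by the rule, with poly I:C at -2.92 just short. Either treatment accounted for Pclaf with 16 added, after centring and under the 50% rule, and neither fully did after cyclic loess. Its dimmer probe set read -3.40 with poly I:C, -3.16 in hypoxia and -3.53 under both. Rrm1, the large subunit of ribonucleotide reductase, read 74.9 untreated, 13.8 with poly I:C, 15.1 in hypoxia and 4.91 under both (-3.93), about equally low with either treatment and lowest with both. Kpna2, a nuclear import gene, was at -2.95, whereas Pcna (0.30) and the tubulin gene Tuba1b (0.17) were under 2-fold. Only 11 of 56 listed genes on the array reached the floor. Of these 6 had reached 64 on the untreated array only, which favours lower values, and of the 5 at 64 on both arrays 2 were lower. The histone list had 8 of 16 genes lower and 2 higher (median -0.94), against 11 lower with each single treatment. Of the 16 genes 8 had reached 64 on the untreated array only and 2 on the combined array only. None of the 6 at 64 on both arrays was 2-fold apart, so the floor fixed the direction of every call in this list. H1f5, a linker histone gene, read 104 untreated, 9.86 with poly I:C, 12.4 in hypoxia and 10.1 under both (-3.36): it was about as low with either treatment alone as with both. The core histone genes H3c13 (-2.02) and H3c8 (-1.997) were lower too, and H1f0, a linker histone gene of resting cells, was higher (1.81). Replication-dependent histone genes are near-identical, so their probe sets are not independent of each other.

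Mitochondrially encoded genes stood among those that neither treatment accounted for, and they were looked at as a group after their values were seen. CYTB, the cytochrome b gene of complex III, read 3456 untreated, 1108 with poly I:C, 2264 in hypoxia and 309.6 under both (-3.48). ND4L, of complex I, read 1699 untreated, 454 with poly I:C, 961 in hypoxia and 158 under both (-3.43), and ND5 read 2393 untreated, 657 with poly I:C, 1695 in hypoxia and 254 under both (-3.24). In each of them the order from high to low was untreated, hypoxia, poly I:C, both. ND3 stood at -3.41 in the brighter probe set and at -1.24 in the other, where the combined array was level with poly I:C alone, and ND1 was at -2.61. The other measured genes of the same genome differed less than CYTB, ND4L, ND5 and ND1. ATP6 was at -0.95 in the brighter probe set and at -1.17 in the other, COX2 at -0.87 and COX1 at -0.51. ND6, the one coding gene on the opposite strand of mitochondrial DNA, was at 0.51. All of the heavy-transcript genes named here belong to long shared precursors, so they are not independent measurements. Nuclear-encoded genes of oxidative phosphorylation had 3 of 25 lower, none higher and a median of -0.33. The lower ones, Atp5g3 (-1.16), Sdha (-1.07) and Ndufb5 (-1.06), were close to the threshold, and Cycs, for cytochrome c, was at 0.81.

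Some genes were 2-fold apart on the combined array and under 2-fold in the same direction with each treatment alone. Lipa, the lysosomal acid lipase gene, read 1370.4 untreated, 835 with poly I:C, 703 in hypoxia and 328 under both (-2.06), with -0.71 for poly I:C and -0.96 for hypoxia. Abce1, a ribosome recycling gene, read 96.7 untreated, 53.6 with poly I:C, 56.5 in hypoxia and 16.3 under both (-2.57). In both the single treatments lay between the untreated and the combined array. Mmp19, a metalloproteinase gene, read 175 untreated, 89.2 with poly I:C, 315 in hypoxia and 39.5 under both (-2.15), highest in hypoxia in media and lowest with both. Cd200r1, an inhibitory receptor gene of myeloid cells, read 151 untreated, 79.4 with poly I:C, 109 in hypoxia and 39.7 under both (-1.93). The class I gene H2-K2 (2.59), the small nucleolar RNA gene Rnu3b1 (2.52) and Gm8174 (2.22) were higher. With cyclic loess H2-K2 stood at -0.28 and Rnu3b1 at 0.13, so both 2-fold calls depend on the scaling. That fit used only the genes at the floor.

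Cholesterol synthesis and uptake had the lowest median of the lists with at least 5 genes at the floor, whereas with a floor of 32 DNA replication and cell division was lower (-2.95 against -1.98), and with the highest floor tried fewer than 5 of its genes were left. Of 10 genes 8 were lower and none was higher (median -1.76), against 9 lower with poly I:C alone (median -1.74) and 4 with hypoxia alone (median -0.73). Hmgcs1, the enzyme before the rate-limiting step, read 119 untreated, 14.9 with poly I:C, 33.1 in hypoxia and 12.5 under both (-3.25). It was about as low with poly I:C alone as with both treatments. Sc5d (-2.11) and Idi1 (-2.01) followed, and Sqle (-0.999) stayed just under 2-fold. Of the 10 genes 8 had reached 64 on the untreated array only, which favours lower values. Ch25h, whose product restrains cholesterol synthesis, stood among the highest genes. Cholesterol efflux and LXR target genes gave no call in 4 (median 0.17), with Abca1 at -0.91, Abcg1 at 0.64, Apoe at 0.32 and Scd2 at 0.03.

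Of 34 matrix, adhesion and scavenger receptor genes 13 were lower and 4 higher (median -0.39), more lower than with poly I:C (7) or hypoxia (4) alone. Besides Mrc1 and Fn1, the fatty acid scavenger receptor gene Cd36 read 959 untreated, 389.7 with poly I:C, 549.8 in hypoxia and 182 under both (-2.40), lowest with both treatments. Clec4a2, a lectin receptor gene, read 72.8 untreated, 33.3 with poly I:C, 52.9 in hypoxia and 14.3 under both (-2.35), also lowest with both. Tgfbi, a matrix protein gene, was at -1.63 with both and at 0.04 and -0.20 with poly I:C and hypoxia alone. Sdc4, a syndecan gene, was higher (2.53), as were Clec4e (2.23), the lectin receptor gene for mycobacterial cord factor, and Mmp13 (1.40).

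Redox genes were mixed, with 2 of 19 higher and 5 lower (median -0.22). The metallothionein gene Mt2 read 54.7 untreated, 52.5 with poly I:C, 244 in hypoxia and 365 under both (2.74) and Hmox1, for heme oxygenase, read 239 untreated, 281 with poly I:C, 550.4 in hypoxia and 601 under both (1.33), both high on the hypoxic arrays. Besides Gclm, the lower genes were Cat (-1.95), for catalase, Txnrd1 (-1.71), Gsr (-1.59) and the cystine transporter gene Slc7a11 (-1.55). The amino acid response list had 2 of 8 higher, Wars (1.21) and Atf4 (1.11), and 1 lower, Slc7a11 (median 0.66). Prostaglandin and leukotriene synthesis gave 1 of 6 higher and 2 lower (median -0.56): Ptgs2 was higher, and Ptgs1 and the thromboxane synthase gene Tbxas1 (-1.99) were lower, so the 2 cyclooxygenase genes stood at opposite ends. Alox5ap was at -0.40.

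In the TCA cycle list 6 of 14 genes were lower and 1 was higher (median -0.91). Acod1, whose enzyme makes itaconate, read 211 untreated, 1312 with poly I:C, 84.9 in hypoxia and 985 under both (2.22), high on both poly I:C arrays and lowest in hypoxia in media. Idh1, the cytosolic isocitrate dehydrogenase gene, read 627 untreated, 182 with poly I:C, 776 in hypoxia and 94.4 under both (-2.73), high on both arrays without poly I:C and lowest with both. Idh3g (-1.41), Aco1 (-1.40), Ogdh (-1.27), Cs (-1.10) and Sdha (-1.07) were lower, and none of them was 2-fold lower with a single treatment. Of the 9 list genes at 64 on both arrays 3 were lower.

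Endoplasmic reticulum chaperone genes had 4 of 17 lower and none higher (median -0.62), among them Dnajc3 (-1.57) and Herpud1 (-1.56). The floor was reached on the untreated array only by 4 of these 17 genes, which favours lower values. Among the 12 that reached it on both arrays 1 was lower. Cytosolic and mitochondrial heat shock genes had 4 of 11 lower and none higher (median -0.85), with Hspd1, for the mitochondrial chaperonin, at -2.30 and the chaperonin subunit gene Cct5 at -1.15. Here too 4 genes had reached the floor on the untreated array only, and 1 of the 7 that reached it on both arrays was lower. Over all genes that reached it on both arrays 7.27% were lower. Apoptosis genes had 6 of 15 higher and none lower (median 0.91), led by the inflammatory caspase gene Casp4 (3.23), the necroptosis effector gene Mlkl (2.49) and Casp1 (2.04). In this list 8 genes had reached the floor on the combined array only, which favours higher values, and 1 on the untreated array only. None of the 6 that reached it on both arrays was counted as higher or lower, so the floor fixed the direction of every apoptosis call. Cytosolic ribosomal protein genes had 8 of 71 lower and 1 higher (median -0.42), with Rpl3 lowest (-1.90). Lysosomal genes had 5 of 30 higher and 3 lower, with a median of -0.07 that was 0.04 after centring. Npc2, a cholesterol carrier gene of the lysosome, was at 1.59 and Ctsk, for cathepsin K, at 1.56, whereas Atp6v0d2, a proton pump subunit gene, was at -1.95 beside Lipa. Of 13 reference genes 1 was higher, Pgk1 (1.40), which belongs to glycolysis, and 2 were lower, Gusb (-1.17) and Sdha, with a median of -0.20 and Actb at -0.14.

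Where the summed markers of other cell types differed between arrays, 1 or a few genes made up most of the sum. The macrophage list had 2 of 16 genes higher, Cd14 (1.89) and a gene at 3.86. In the same list 5 were lower, Mrc1, Marco (-1.83), Adgre1 (-1.78), Mertk (-1.54) and Ccr2 (-1.26). Of its 11 genes at 64 on both arrays 1 was higher and 1 lower. Sums over its 18 genes on the array were 9873 untreated, 8695 with poly I:C, 9925 in hypoxia and 8936 under both. The dendritic cell list summed to 4925, 5488, 6223 and 6659 on these arrays, with 2 of 7 genes higher and 1 lower. The neutrophil list summed to 916, 539, 1127 and 652, of which Mmp8 and Chil3 made up nearly all, and the defining genes S100a8, Ly6g and Mpo lay at 2.41 to 6.89. The eosinophil list was at 146, 286, 245 and 481, from the ribonuclease genes Ear1 (1.91) and Ear2 (1.91), with the defining genes Epx, Prg2 and Ccr3 at 1.99 to 4.40. The plasmacytoid list was at 69.5, 592, 68.1 and 662, of which Bst2, itself interferon-stimulated, was the one gene at the floor, and its defining gene Siglech lay at 2.51 to 3.36. The erythroid list held Car2 (1.16) at the floor and the stromal and endothelial list Kdr (4.66), a receptor gene that read 3.62 untreated, 64.1 with poly I:C, 6.02 in hypoxia and 91.3 under both, with Pecam1 and Cdh5 at 2.73 to 4.38. No gene of the mast cell, B cell, T cell or natural killer cell lists reached the floor, and their sums stayed between 18.9 and 51.3. The part of any of these cells in the differences given above was not tested.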

How the data were processed

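Total RNA (200 ng) from each of 4 samples was read on an Affymetrix Mouse Gene ST 1.0 array. The labelling text also mentions nascent RNA, whereas the samples are labelled total RNA and were taken as such. The authors normalized the arrays by RMA, as the design text states, with Affymetrix Expression Console, per the submitters' processing notes. Versions and the annotation's build were not given in the sources used here. The deposited intensity values are linear and stand in 2 tables, between which 0 of the values differ.

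Of 28998 probe sets, 18694 were named through RefSeq accessions, 2210 by a current symbol and 1750 by a synonym, and 2270 kept the file's symbol. Those with several genes (163) or none (3911) were left out, and the brightest probe set stood for a gene (380 of the 2537 genes had several). Log2 differences were taken between single arrays without an offset and called at 2-fold, and with 1 array a side no test was possible. Genes were named by rule: the 20 highest and 20 lowest, up to 4 per pathway list by absolute difference, and up to 8 each of genes apart only on the combined array, opposed between single treatments, or with a single treatment beyond the combined array. Other genes named are examples from the lists or from the genes that hypoxia accounted for. The genes, lists and rules were chosen with earlier results of these data known. A few genes that these rules named are not reported here. Lists share genes, for example Egln3, Nos2 and Irf7.

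Promoter windows were RefSeq's (GRCm38.p6), used for sequence only. The classification of genes by single treatment was also run on simulated data. No result of that run is given here, and it does not show how reliable the class of any named gene is. Alternatives were other floors, an offset of 16, centring, cyclic loess (limma 3.58.1 in R 4.3.3), the mean of probe sets, a 3-fold call and another rule for accounting. The cyclic loess fit used only the genes at the floor. Tables were handled in Python 3.11.15 with numpy 2.4.6 and pandas 2.3.3, and figures drawn with matplotlib 3.10.9.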

Additional observations from a re-analysis of the deposited data

Results flagged for a closer look

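Poly I:C came with higher Arg1 and Egln3 in normoxia but with lower values in hypoxia. The poly I:C difference of Arg1 was 2.66 in normoxia (36.4 against 5.76) and -2.09 in hypoxia (187 against 796). For Egln3 it was 2.10 in normoxia (16.3 against 3.81) and -1.03 in hypoxia (247 against 506). Each value rests on 1 array a side, and the difference between the 2 settings was not tested. The untreated values, 5.76 and 3.81, lie near that array's median of 3.90, so the differences in normoxia are uncertain in size. With 16 added to each intensity the combined differences were 3.22 for Arg1 and 3.73 for Egln3. These are not the poly I:C differences, whose change of sign was not checked with 16 added.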

How the results depend on the processing

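The counts of genes higher and lower, 495 and 381, depended on the floor and the threshold. Genes lower were 674 with a floor of 32, 158 with the highest floor tried, 244 with 64 on the mean of the arrays, 134 at 3-fold and 1248 without a floor. Genes higher were 315 with the highest floor, 293 at 3-fold and 942 without a floor. The share of higher genes among those called was 56.5% as given, 66.6% with the highest floor, 68.6% at 3-fold and 43.0% without a floor. Centring moved the median of all genes by 0.11 and gave 546 higher and 324 lower. Lists with at least 50% of their members higher were 9 of 27, and 5 at 3-fold. Lists with at least 50% lower were 3, and 1 with the highest floor, with 64 on the mean, with 16 added, after centring and at 3-fold.

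Of the 40 leading genes 29 to 40 were shared under other settings, and 27 to 40 kept the treatment that accounted for them, with 27 under the 50% rule, 30 with 16 added and 33 after cyclic loess. H2-K2 turned from 2.59 to -0.28 and Tyk2 from 2.08 to -0.061 after cyclic loess, which also took Ppbp to -11.45 and Ifit3b to 2.58. Adding 16 made 81 of 146 named differences smaller or larger by over 0.31, and cyclic loess did so for 37. That size is a yardstick from the spread over genes of the poly I:C difference in hypoxia minus that in normoxia, and not a replicate error. Of the named genes called at 2-fold, 26 shifted by over 1.5 times and 8 lost the call after cyclic loess, Atf4, Cxcl9, H2-K2, Hspa4, Ier3, Rnu3b1, Sdha and Tyk2, and 9 lost it with 16 added. The cause of these shifts was not tested. No paired analysis was possible because each condition has 1 array and the labels give no replicate numbers, and no array could be left out. Intensities near the arrays' medians carry little signal, so large differences of dim genes are uncertain in size.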
